A study of Brassica carinata and Brassica napus and Brassica carinata x Brassica napus with 3 samples.

Results

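The comparison concerns floral buds of an interspecific hybrid between Brassica carinata and Brassica napus, set against floral buds of B. carinata, 1 of its parents. It used 2 of the 3 libraries of the series, the hybrid and B. carinata cultivar W29, both from buds at the initial flowering stage. The library of the other parent, B. napus cultivar Zhongshuang 11, was left out. Total RNA was extracted with Trizol, treated with DNase I and sequenced on an Illumina HiSeq 2000, and reads were counted on a common set of 157663 assembled sequences. No cultivar is labelled for the hybrid, and the direction of the cross, its generation and the number of plants behind each library do not appear in the sources used here. With 1 library in each group, every difference below compares libraries, has no replicate check and has no p-value. Intervals of read ratios (95%, exact conditional binomial) cover counting error only.

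The members were protein units. A unit is the sum of all assembled sequences whose best Swiss-Prot hit is the same protein entry, where that hit scored at least 0.6 of the best hit in the Nr protein database. Of 157663 sequences 64454 could be placed in this way, in 10565 units. A unit was kept where its summed RPKM (reads per kilobase of sequence, scaled to the library total) reached 5 in either library, which left 8094 units, 7419 of them named by an Arabidopsis thaliana entry. The limit divided a continuous range, with 176 units between 5 and 5.5 RPKM in the higher library and 168 between 4.5 and 5. The kept units took up 62.6% of 27.1 M counted reads in the hybrid and 61.3% of 28.1 M in B. carinata, with a median of 719 and 776 reads per unit.

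Brassica carinata and Brassica napus are allotetraploids of the mustard family that share the B. oleracea genome, so that the hybrid carries parental gene copies of several ancestral genomes. A floral bud holds sepals, petals, stamens and the pistil at once. In the anther the tapetum, a secretory cell layer around the developing pollen, supplies enzymes, lipids, phenolic compounds and wall material to the microspores and degenerates before pollen is shed. RNA of the tapetum can therefore be abundant in young buds and drops out of older ones.

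Most units stood at a similar level in both libraries, and those that did not were more often lower in the hybrid. On the scale of log2(RPKM + 1), 309 units (3.82%) were at least 2-fold higher in the hybrid and 681 (8.41%) at least 2-fold lower, and 7104 (87.8%) lay in between. These percentages are the background against which each protein family is read below. The median log2 ratio of hybrid over B. carinata was -0.08, with quartiles of -0.43 and 0.26. The 2-fold limit also fell within a continuous range, since 86 units lay up to 0.05 outside it on the log2 scale and 93 up to 0.05 inside it. Units apart by at least 8-fold numbered 38 on the lower side and 27 on the higher side.

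Low levels held more units apart, but the excess on the lower side was present at each level. Among units that reached 5 to 10 RPKM in the higher library, 13.9% were lower and 6.12% higher. At 20 to 50 RPKM the shares were 7.20% and 2.67%, and at 200 RPKM and above 6.64% and 4.42%. Sequences joined in 1 unit often disagreed. Among 6717 units within 2-fold that had at least 2 sequences with 20 reads or more, 2864 (42.6%) held a sequence at least 2-fold higher by reads and another at least 2-fold lower. Of 516 such units on the lower side, 117 (22.7%) held a sequence that was 2-fold higher. Of 43539 sequences with at least 20 reads in all kept units, 22.2% were 2-fold higher and 21.1% 2-fold lower, and 1365 were read in the hybrid alone against 276 in B. carinata alone.

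**Figure D1:**
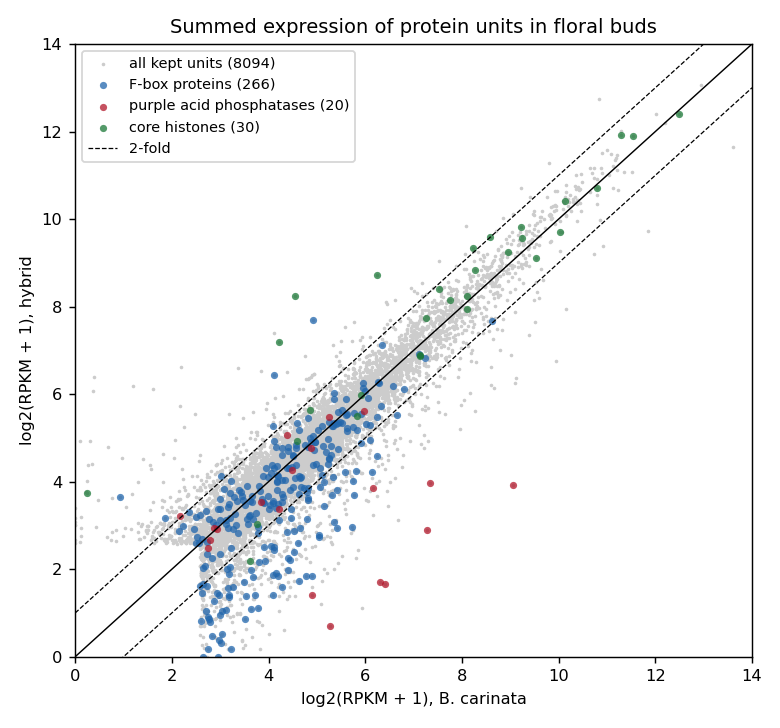
Summed expression of the 8094 kept units as log2(RPKM + 1) in B. carinata (horizontal axis) and the hybrid (vertical axis), 1 point per unit, with equality as a solid line and 2-fold limits as dashed lines. F-box proteins (blue) spread below the lower limit, several purple acid phosphatases (red) lie far below it, and core histones (green) lie mostly around or above the line of equality, with 1 of 30 below the lower limit.

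The floral character of both libraries was checked on 7 organ identity genes, and none of them was 2-fold apart. These MADS-box factors specify petals, stamens and carpels. Their summed level was 1158 RPKM in the hybrid against 1145 in B. carinata. PISTILLATA, which acts in petals and stamens, had 312 and 291 RPKM, and SEPALLATA 2, a cofactor of all floral organs, had 259 and 172 RPKM. SEPALLATA 1 and APETALA 1 A were also slightly higher in the hybrid. APETALA 3, AGAMOUS and SEPALLATA 3 went the other way. APETALA 3 had 251 RPKM in the hybrid against 350 in B. carinata (read ratio 0.719, interval 0.697 to 0.741), and AGAMOUS had 96.3 and 117 RPKM. All 7 genes thus lay within 2-fold, with members on both sides of equality.

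Genes of the tapetum did differ. Of 8 tapetum markers 6 were lower in the hybrid by at least 2-fold, 1 was higher and 1 was in between, and their summed level was 1174 RPKM in the hybrid against 4421 RPKM in B. carinata. Most of both sums came from the single sequence of the tapetum-specific protein A9, at 853 and 3665 RPKM. MALE STERILITY 1, a PHD finger regulator of late tapetum development, had 2.16 and 13.4 RPKM, and ABORTED MICROSPORES, a bHLH regulator of tapetum genes, had 28.6 and 68.3 RPKM. EXL6, a lipase named among pollen coat proteins of Arabidopsis, had 104 and 97.9 RPKM and was the member in between. The 7 markers of mature pollen were low in both libraries, at 21.8 and 27.8 RPKM in sum. The arabinogalactan proteins AGP6, at 11.3 and 11.6 RPKM, and AGP11, at 8.14 and 11.4 RPKM, made up most of it, and the other 5 stayed at or below 2.78 RPKM. In whole buds, fewer tapetum cells and less RNA per tapetum cell cannot be told apart. With 1 library in each group, the part of the lower tapetum level in the other differences described below cannot be told and was not tested.

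Other proteins of the anther included lower units, while most oleosins of the pollen coat were not lower. The groups share 1 unit each with the marker list, the lower A9 and the higher oleosin GRP-17. Among 11 units named as pollen-specific, anther-specific or tapetum-specific, 5 were lower and 1 was higher, and the number of lower units ranged from 2 to 6 under the alternatives. Tapetum-specific methyltransferase 1, which methylates phenolic amides of the pollen coat in Arabidopsis, had 52.9 RPKM in the hybrid against 253 in B. carinata (read ratio 0.239, interval 0.226 to 0.252). The anther-specific proline-rich protein APG under its Arabidopsis entry had 48.6 and 151 RPKM. Major pollen allergen Ole e 10, a small glucan-binding protein named from olive, had no read in the hybrid and 53 reads in B. carinata. All 3 were lower in the hybrid library than in B. carinata, and were named because their ratios were among the largest of the group. Oleosins, which coat lipid bodies in the tapetum and end up on the pollen surface, went in both directions. Of 7 units (6 oleosins and glycine-rich protein 2 of tobacco) 4 were higher, among them glycine-rich protein 2, and 1 was lower. The number of higher units was 1 to 6 under the alternatives. The median log2 ratio of 1.06 was that of glycine-rich protein 2. In sum the 7 units had 1059 RPKM in the hybrid against 1156 in B. carinata. Oleosin-B4 had 148 RPKM in the hybrid against 44.0 in B. carinata, and Oleosin-B6 had 83.4 and 28.2 RPKM. The ratio of Oleosin-B6 reversed to -0.43 where sequences were placed with no minimum of the Swiss-Prot score. Oleosin-B2 was the lower member, at 209 and 460 RPKM, and Oleosin-B1, the most abundant, had 409 and 525 RPKM.

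**Figure D2:**
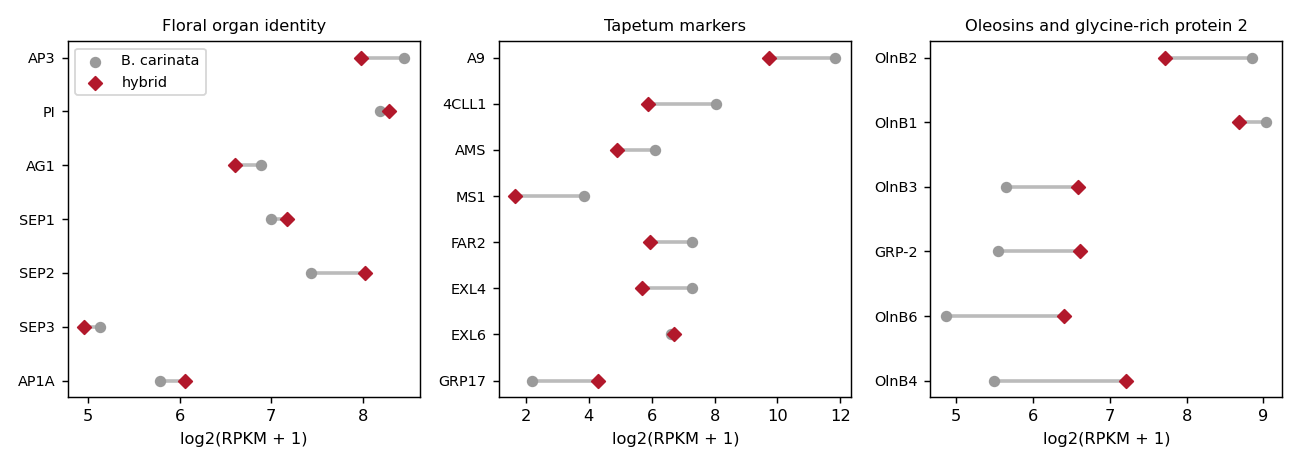
Level of floral organ identity genes, tapetum markers and oleosins with glycine-rich protein 2 as log2(RPKM + 1), 1 row per unit, with B. carinata as grey circles and the hybrid as red diamonds, 1 library each. Hybrid and B. carinata lie close together for organ identity, the hybrid lies to the left for 6 of 8 tapetum markers, and it lies to the right for 4 of the 6 units in the third panel.

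Purple acid phosphatases held the lowest ratios of the whole comparison. These metal-containing enzymes release phosphate from organic esters and are secreted or stored in the vacuole, and several members are classed as probably inactive. They made up 7 of the 12 lowest units among those with at least 20 RPKM. Of 20 units of the family 8 were lower (40%) and 1 was higher, beside 8.41% and 3.82% of all units, and the number of lower units stayed between 8 and 10 under all alternatives tried.

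PAP6 was the most abundant member in B. carinata and the lowest in ratio, at 14.2 RPKM in the hybrid against 532 in B. carinata. It had 398 and 13049 reads, a read ratio of 0.0317 (interval 0.0286 to 0.0350), and all 7 of its sequences with at least 20 reads were lower. PAP5 had 2.18 and 83.7 RPKM, PAP14 had 2.25 and 78.3 RPKM, and PAP19 had 0.639 and 37.5 RPKM from 5 and 305 reads. PAP14 is classed as probably inactive, the other 3 as active enzymes. PAP11 followed with 6.49 and 154 RPKM, PAP25 with 1.65 and 28.6 RPKM, and PAP24 with 14.6 and 162 RPKM. PAP17 had 13.4 and 70.8 RPKM, the smallest difference of the 8. These 8 units were grouped because they were at least 2-fold lower, so their shared direction follows from that choice. No sequence of theirs with 20 reads or more was 2-fold higher in the hybrid, which the same choice favours.

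The other 12 members, named here after their values had been seen, did not follow. PAP13 was the higher unit, at 8.24 RPKM in the hybrid against 3.50 in B. carinata. PAP29 had 32.4 and 19.997 RPKM, PAP26, a main vacuolar acid phosphatase of Arabidopsis, had 43.3 and 37.3 RPKM, and PAP18 had 26.4 and 28.2 RPKM. PAP10, a secreted enzyme of phosphate-starved Arabidopsis roots, had 48.1 and 61.7 RPKM. PAP12 was the lowest of the units in between, at 9.43 and 17.5 RPKM. The family therefore fell into 8 units that were 5.28-fold to 58.7-fold lower by RPKM and 12 that lay between 2-fold lower and slightly more than 2-fold higher. Of its 78 sequences with at least 20 reads 37 (47.4%) were 2-fold lower and 16 (20.5%) were 2-fold higher. Among such sequences of all kept units the shares were 21.1% and 22.2%.

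**Figure D3:**
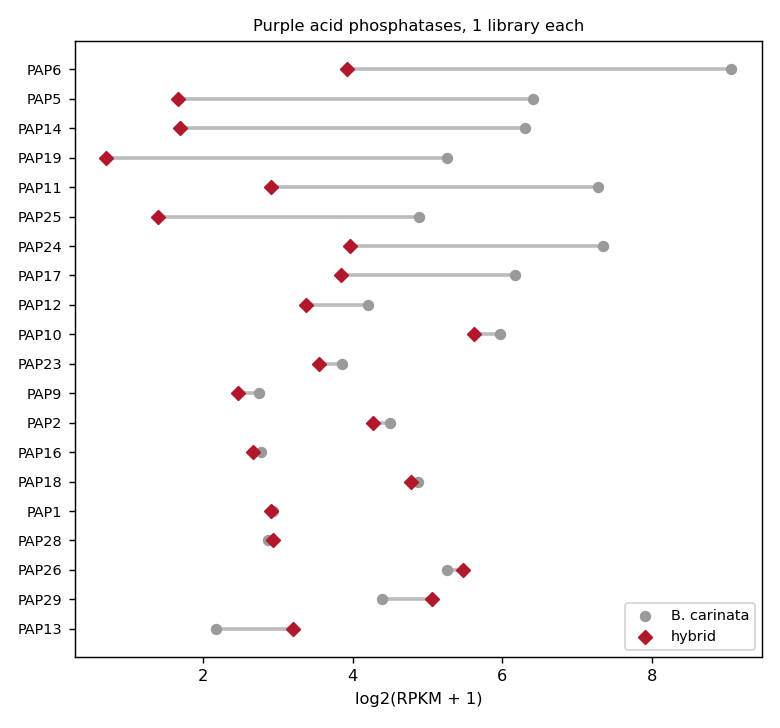
Level of the 20 purple acid phosphatase units as log2(RPKM + 1), ordered by log2 ratio, with B. carinata as grey circles and the hybrid as red diamonds, 1 library each. The 8 units at the top have the hybrid far to the left, from 13.4 against 70.8 RPKM for PAP17 to 14.2 against 532 RPKM for PAP6, and below them the 2 libraries lie close together.

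Phosphate transporters of the PHT1 family, which take up phosphate across the plasma membrane, included 3 lower units. PHT1-6 was the most abundant, with 69.99 RPKM in the hybrid against 407 in B. carinata and a read ratio of 0.180 (interval 0.174 to 0.187). All 4 of its sequences were lower. PHT1-3 had 1.49 and 19.8 RPKM. PHT1-5 had 3.03 and 39.7 RPKM, but its read ratio was only 0.262 (interval 0.198 to 0.342), since a summed RPKM weighs short sequences more than long ones. The sequences of PHT1-5 disagreed: of 2 with at least 20 reads 1 was 2-fold lower and 1 was 2-fold higher. In all 23 phosphate and sulfate transporter units 3 were lower (13.0%) and 1 was higher, the sulfate transporter SULTR4;2 of the vacuole, at 23.5 and 5 RPKM.

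F-box proteins were the largest family in which lower units were frequent. They are the subunits of SCF ubiquitin ligases that bind the protein to be degraded, and plants have very many of them. Of 266 units 85 were at least 2-fold lower (32.0%) and 6 were higher (2.26%), with a median log2 ratio of -0.48. Among the 7828 other units 7.61% were lower and 3.87% higher. The lower share of F-box units was 43.8% at 5 to 10 RPKM, 27.3% at 10 to 20 RPKM, 29.7% at 20 to 50 RPKM and 28.1% at 50 to 200 RPKM, where the other units had 12.4%, 7.35%, 6.33% and 6.44%. Thus the difference in shares was present in each of these levels. Of 1569 F-box sequences with at least 20 reads 636 (40.5%) were 2-fold lower and 284 (18.1%) 2-fold higher. Among such sequences of all kept units 21.1% were lower and 22.2% higher. The count depended on how sequences were joined: with RPM (reads scaled to the library total alone) summed without regard to length 46 of 221 units (20.8%) were lower, and with a limit of 20 RPKM 36 of 125 (28.8%). Over all units the number of lower ones also fell under these settings, from 681 to 491 and 340.

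**Figure D4:**
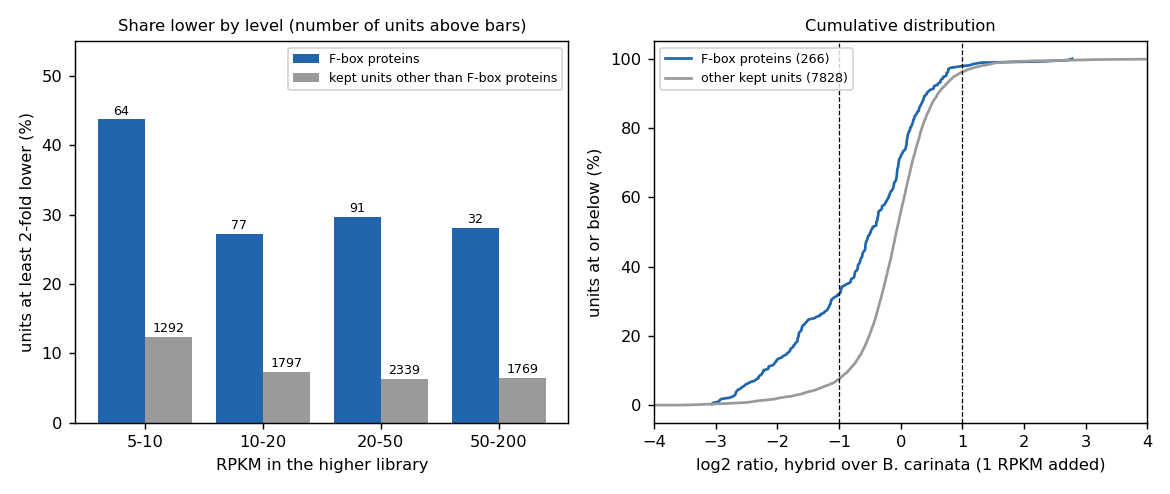
Left, share of units at least 2-fold lower in the hybrid (%) by the RPKM of the higher library, for F-box proteins (blue) and all other kept units (grey), with the number of units above each bar. Right, cumulative share of units (%) over the log2 ratio of hybrid to B. carinata, with dashed lines at 2-fold: the curve of the 266 F-box units runs above that of the 7828 others on the lower side, at 32.0% against 7.61% at the lower limit.

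The subtypes of F-box proteins differed in their shares. Units with an FBD domain, a domain found at the end of many plant F-box proteins, had 12 of 29 lower (41.4%), and plain F-box names 39 of 98 (39.8%). Units with kelch repeats, which form a propeller that binds the substrate, had 21 of 62 lower (33.9%), and units with leucine-rich repeats but no FBD domain 6 of 31 (19.4%). None of the 8 Tubby-like units was lower. In a split chosen after the values had been seen, 85 of 230 units named by locus or number were lower (37.0%) and 0 of 36 with a name of their own, such as those known from hormone or light signalling. The most extreme unit was F-box/kelch-repeat protein At5g49000, with 2.60 RPKM in the hybrid against 29.0 in B. carinata. Of its 5 sequences with at least 20 reads 4 were 2-fold lower and 1 was 2-fold higher. F-box protein At2g18780 had 1 and 85 reads, a read ratio of 0.0122 (interval 0.000306 to 0.0700), and At4g09920 had 0 and 85 reads. At4g19940 had 2.58 and 26.4 RPKM, and all 4 of its sequences were lower. The most abundant member, F-box/kelch-repeat protein At1g25211, had 201 and 395 RPKM. Against this direction stood F-box protein At3g08750, named after its values had been seen, which had 206 RPKM in the hybrid against 29.1 in B. carinata. Its sequences disagreed, since of 9 with at least 20 reads 3 were 2-fold higher and 4 were 2-fold lower.

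Ubiquitin ligases of other types stood near the background. Of 136 RING and U-box units 13 were lower (9.56%) and 3 were higher. The lowest were ligases of the Ariadne group, which carry a RING-between-RING domain. ARI11 had 0.443 RPKM in the hybrid against 15.2 in B. carinata, ARI16 had 5.5 and 33.9 RPKM, and ARI13 had 11.0 and 63.3 RPKM. PUB23, a U-box ligase that dampens immune responses, had 0.991 and 9.67 RPKM. These 4 were 5.73-fold to 34.3-fold lower, whereas RGLG2, the most abundant ligase of the group, had 133 and 175 RPKM. Of 5 SINA-like ligases 3 were lower, by little more than 2-fold, with SINA-like 2 at 20.4 and 48.8 RPKM.

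Enzymes of flavonoid synthesis were lower at several steps. Flavonoids give flower pigments and the flavonols of the pollen coat. Of 18 units 7 were lower (38.9%) and 1 was higher (median log2 ratio -0.87), and the number of lower units ranged from 3 to 12 over the alternatives. Chalcone synthase, which makes the first flavonoid of the pathway, was the name of 4 units, and all 4 were lower. Their entries came from Sinapis alba, Raphanus sativus and Equisetum arvense, a horsetail. The unit Chalcone synthase 1 of Sinapis alba, the most abundant of them, had 177 RPKM in the hybrid against 456 in B. carinata (read ratio 0.478, interval 0.465 to 0.492). Chalcone synthase 3 had 6.33 and 22.6 RPKM. The unit named from Equisetum had the lowest ratio of the 4, at 0.962 and 9.64 RPKM. Whether the 4 units are copies of 1 enzyme, with reads split among them, was not tested.

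Several later steps, named after their values had been seen, pointed the same way, but not every unit did. Chalcone isomerase, the next enzyme, had 43.0 and 79.1 RPKM, and flavonol synthase FLS1 had 132 and 253 RPKM, both just short of 2-fold. Leucoanthocyanidin dioxygenase LDOX, which makes anthocyanidins, had 3.08 and 9.64 RPKM. Dihydroflavonol reductase DFRA under its Arabidopsis entry had 2.42 and 5.93 RPKM. The anthocyanin acyltransferase 3AT1 had 1.91 and 11.98 RPKM. All of these were lower in the hybrid library by reads as well as by RPKM. Dihydroflavonol reductase under a Callistephus entry, the more abundant of the 2 reductase units, went the other way. It had 63.9 RPKM in the hybrid against 41.8 in B. carinata (read ratio 1.53, interval 1.44 to 1.62). The largest ratio in the higher direction was that of flavanone 3-dioxygenase under a parsley entry, at 19.7 RPKM in the hybrid against 0.203 in B. carinata, from a single sequence. Flavone 3'-O-methyltransferase 1, the most abundant unit of the group, is also an enzyme of lignin and sinapate synthesis and had 473 and 443 RPKM.

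Enzymes that decorate small molecules were lower more often than the background. Among 45 UDP-glycosyltransferases, which attach sugars to flavonoids, hormones and phenolics, 9 were lower (20%) and 1 was higher, with a median of -0.54. UGT79B1, which adds xylose to anthocyanins in Arabidopsis, had 5.52 and 34.3 RPKM. UGT89C1, a flavonol rhamnosyltransferase, had 3.71 and 14.6 RPKM, and UGT72E3, which glucosylates lignin precursors, had 3.01 and 19.3 RPKM. UGT79B9 had 1 and 76 reads, a read ratio of 0.0137 (interval 0.000342 to 0.0785). These were the 4 most extreme members, whereas UGT84A2, the sinapate glucosyltransferase and the most abundant member, had 59.8 and 63.1 RPKM.

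Glutathione S-transferases, which conjugate or bind reactive compounds and flavonoids, had 7 of 34 units lower (20.6%) and 3 higher (8.82%). GSTF9, the most abundant, had 284 RPKM in the hybrid against 717 in B. carinata. GSTU11 had 11.7 and 74.6 RPKM and GSTU21 5.81 and 27.6 RPKM. GSTF8 of the chloroplast and GSTU12 went the other way, with 36.8 and 3.74 RPKM and with 5.33 and 0.670 RPKM. Both directions thus occurred within the family. Of 40 cytochrome P450 enzymes 7 were lower (17.5%) and none was higher. CYP86B1, which hydroxylates very-long-chain fatty acids for suberin, had 29.5 and 155 RPKM. CYP83A1, an enzyme of aliphatic glucosinolate synthesis, had 2.51 and 12.2 RPKM. CYP98A8, the most abundant P450, hydroxylates phenolic amides of the Arabidopsis pollen coat and had 101 and 211 RPKM.

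Lipid carriers and lipases held lower units more often than the background. Of 16 non-specific lipid-transfer proteins, which carry lipids through the wall space, 4 were lower (25%) and 2 were higher (12.5%), so that both shares exceeded the background. Without units named by grass entries 3 of 15 were lower and 2 higher, with a median log2 ratio of -0.09. LTP12 was by far the most abundant, at 3211 RPKM in the hybrid against 12445 in B. carinata, and the unit named Non-specific lipid-transfer protein 2 from apricot had 8.51 and 70.5 RPKM. A wax-associated member, lipid-transfer protein B of Brassica oleracea, was higher at 54.7 and 14.5 RPKM. Of 53 GDSL esterases and lipases 9 were lower (17%) and 2 were higher. GDSL esterase/lipase At1g20120 had 47.8 and 309 RPKM, and At5g03980 had 0.373 and 11.6 RPKM. At1g28660 stood at the opposite end, with 12.6 RPKM and 127 reads in the hybrid and 0.170 RPKM and 2 reads in B. carinata (read ratio 66.0, interval 17.9 to 551). The abundant At5g33370, a cutin-related enzyme, had 491 and 644 RPKM.

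So did proteins of fatty acid synthesis and glucosidases. Of 33 units of acyl carrier proteins and fatty acid synthases 7 were lower (21.2%) and 1 was higher. Acyl carrier protein ACL1.A2, which holds the growing fatty acid, had 108 RPKM in the hybrid against 290 in B. carinata, and ACL1.C1 had 16.01 and 96.7 RPKM. The acyl-ACP desaturases 4 and 2 were also lower, whereas the mitochondrial carrier MTACP1 had 352 and 322 RPKM. Among 41 beta-glucosidases and glucan glucosidases 9 were lower (22%) and 1 was higher. The glucanase A6, a tapetum enzyme thought to dissolve the callose around microspores, had 294 and 773 RPKM, and 8 of its 12 sequences were lower with none higher. BGLU20 had 97.1 and 390 RPKM. Glucan endo-1,3-beta-glucosidase-like protein 3, the most abundant of the group, had 680 and 609 RPKM.

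Transporters were lower above all in a few members. Of 74 ABC transporters, which use ATP to move lipids and other compounds, 11 were lower (14.9%) and 1 was higher, with a median of -0.35. ABCG9 had 10.9 RPKM in the hybrid against 48.0 in B. carinata, and ABCG31 had 17.5 and 59.7 RPKM. Both export sterol glycosides to the pollen coat in Arabidopsis. ABCG16, which acts in pollen wall formation, had 2.63 and 13.3 RPKM. Of 39 sugar transporters 8 were lower (20.5%) and 1 was higher, with a median of -0.05. STP2, a monosaccharide carrier of young Arabidopsis pollen, had 3.42 and 42.1 RPKM and a read ratio of 0.0805 (interval 0.0680 to 0.0946). SWEET5 had 14.9 and 45.3 RPKM, and the ERD6-like transporter 15 had 15.3 and 47.6 RPKM. The phloem sucrose carrier SUC2, in contrast, had 74.3 and 43.3 RPKM. Although 8 members were lower, the family median was close to that of all units.

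Units named as potassium channels were all below equality. Of 22 potassium channels and transporters 4 were lower and none was higher. KAT3, a regulatory subunit of inward channels, had 7.16 and 37.6 RPKM, AKT5 had 3.34 and 18.4 RPKM, AKT6 of pollen had 0.962 and 6.89 RPKM, and KAT2 of guard cells had 2.96 and 7.11 RPKM. The 6 units with that name had a median of -1.52. Amino acid and peptide transporters held units of both directions, with 9 of 53 lower (17%) and 4 higher. Oligopeptide transporter OPT9 had 1.63 and 20.3 RPKM and OPT2 6.50 and 38.5 RPKM, whereas OPT5 had 12.1 and 1.27 RPKM. The peptide/nitrate transporter At5g28470 had 3.51 and 27.9 RPKM. Amino acid permeases leaned the other way with a median of 0.39 over 6 units. AAP1 had 73.1 and 43.6 RPKM, and the lower member AAP7, at 5.15 and 12.1 RPKM, reversed to 0.96 on the log2 scale with no minimum of the Swiss-Prot score.

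Transcription factors differed by family, and LOB domain proteins had the highest share on the lower side. These plant-specific factors act at organ boundaries and in lateral organs. Of 16 units 7 were lower and 1 was higher. LBD20, the most abundant, had 26.3 RPKM in the hybrid against 148 in B. carinata. LBD7 had 2.17 and 17.5 RPKM, LBD36 5.79 and 35.9 RPKM, and LBD28 4.80 and 29.97 RPKM. These 4 were 5.62-fold to 8.05-fold lower, and none of their sequences with 20 reads was 2-fold higher. They were named for their large ratios, so their shared direction follows from that choice. Of 20 NAC factors 4 were lower and 2 were higher. NAC006 had 1.31 and 32.7 RPKM, a read ratio of 0.0447 (interval 0.0340 to 0.0580), and was among the 12 lowest units of all. NAC025 had 128 and 438 RPKM, NAC055 1.99 and 8.58 RPKM, and the stress factor NAC072 was higher at 13.1 and 4.77 RPKM.

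MADS-box and homeobox factors were balanced or leaned higher. Of 28 MADS-box units 3 were lower and 3 were higher. AGL5, a carpel and fruit factor, had the largest ratio of the family, at 22.2 and 3.12 RPKM. AGL97 had 4.92 and 16.9 RPKM, AGL93 2.95 and 8.75 RPKM, and the AGL8 homolog, related to the fruit regulator FRUITFULL, was higher at 39.9 and 16.1 RPKM. The AGL9 homolog, a SEPALLATA-type factor and the most abundant of the family, had 404 and 342 RPKM. Of 55 homeobox units 5 were higher (9.09%) and 2 were lower (3.64%). ATHB-21 had 19.7 RPKM in the hybrid against 1.91 in B. carinata, ATH1, a meristem and boundary factor, had 61.5 and 18.7 RPKM, and KNAT1, which acts in the inflorescence stem, had 17.1 and 6.45 RPKM. GLABRA 2, an epidermal cell fate factor, was lower at 2.21 and 8.58 RPKM.

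RNA regulators held 2 small families with lower members. CCR4-associated factors 1 shorten the poly(A) tail of messenger RNA. Of 8 units 4 were lower, among them CAF1-1 with 3.90 RPKM in the hybrid against 45.0 in B. carinata and CAF1-5 with 3 and 104 reads, a read ratio of 0.0300 (interval 0.00608 to 0.0900). CAF1-10, the most abundant, had 84.4 and 92.2 RPKM. Pumilio proteins bind messenger RNA and control its translation and decay. Of 12 units 4 were lower and none was higher: APUM14 had 2.80 and 20.7 RPKM, APUM15 3.01 and 20.1 RPKM, APUM18 17.4 and 59.0 RPKM and APUM3 9.80 and 25.4 RPKM. APUM24, a nucleolar member, had 45.2 and 41.1 RPKM.

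Small secreted and metal-binding proteins were among the most extreme units. Gibberellin-regulated (GASA) peptides are cysteine-rich and secreted. Of 8 units 4 were lower: GASA10 had 7.66 RPKM in the hybrid against 101 in B. carinata, GASA3 had 0.226 and 7.6 RPKM from 2 and 70 reads (read ratio 0.0297, interval 0.00353 to 0.111), GASA6 had 1.81 and 9.25 RPKM and GASA7 42.1 and 88.1 RPKM. GASA14 was the most abundant and had 510 and 395 RPKM. Defensin-like proteins and pathogenesis proteins were apart in both directions, with 6 of 22 higher (27.3%) and 5 lower (22.7%). Defensin-like protein 278 had 1.17 and 59.7 RPKM from 12 and 637 reads, and Defensin-like protein 5 had 75.3 and 545 RPKM. Defensin-like protein 281 had 76 reads in the hybrid and none in B. carinata. Thaumatin-like protein 1 of peach had 91 reads and none, and its ratio reversed to -0.37 with no minimum of the Swiss-Prot score. Defensin-like protein 2 was abundant at a similar level, 4663 and 4715 RPKM.

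Calcium sensors and protease inhibitors also spread widely. Of 46 calmodulin and calcium-binding units 8 were lower (17.4%) and 1 was higher. CML23 had 3.77 RPKM in the hybrid against 54.96 in B. carinata, and CML32 had 24.1 and 66.1 RPKM. CML14 was the higher unit, at 29.4 and 0.237 RPKM, from 246 and 2 reads, a read ratio of 128 (interval 35.0 to 1061). All 3 of its sequences were higher. Of 7 cysteine proteinase inhibitors, which block papain-type proteases, 2 were lower and 1 was higher. CYS5 had 84.5 and 185 RPKM, CYS7 had 3.72 and 11.2 RPKM, and CYS3 was higher at 14.9 and 1.48 RPKM. The UPF0496 proteins, of which no function is given by their name, had 3 of 6 units lower, and At3g28270 among them had 247 and 1137 RPKM, a read ratio of 0.218 (interval 0.213 to 0.223). Myrosinase-binding proteins, lectins linked to the glucosinolate defence of the mustard family, had 3 of 6 units lower and 1 higher, with F-ATMBP at 71.6 and 184 RPKM and At1g52040 at 18.6 and 1.97 RPKM.

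**Figure D5:**
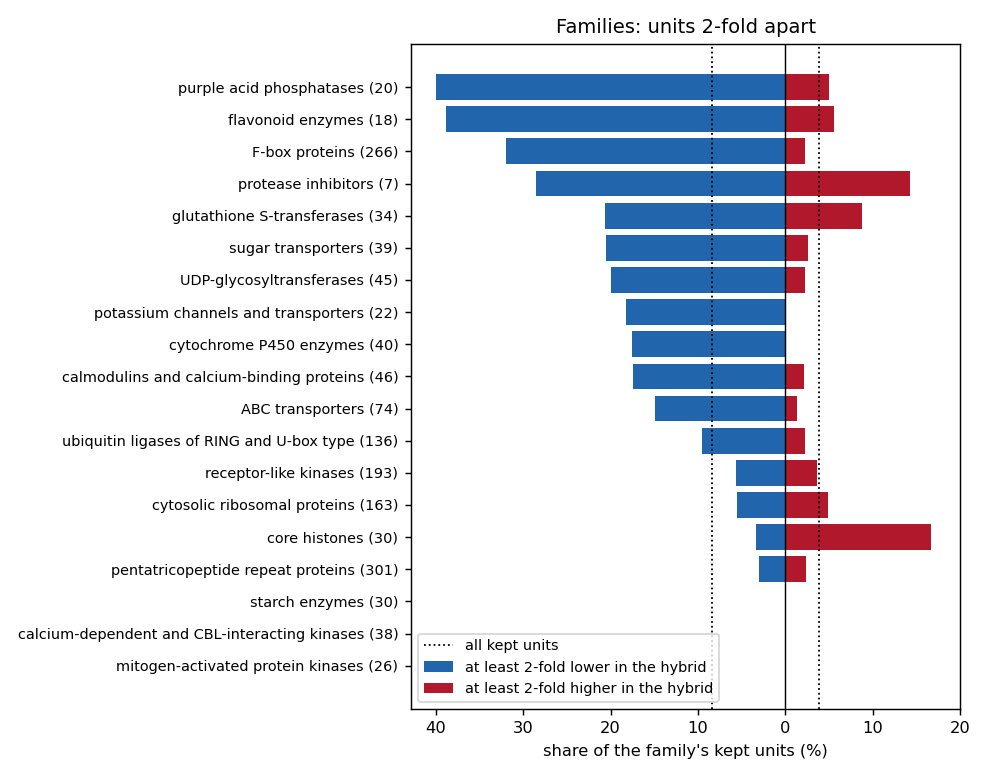
Share of kept units (%) at least 2-fold lower (blue, to the left) and at least 2-fold higher (red, to the right) in the hybrid for 19 families, with the number of units in brackets and the shares of all kept units as dotted lines. Purple acid phosphatases, flavonoid enzymes and F-box proteins reach 32.0% to 40% on the lower side, core histones reach 16.7% on the higher side, and 3 families have no unit apart.

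The higher side was led by single units of unrelated function, many of them close to absent in B. carinata. UPF0725 protein At4g17990 had 82.9 RPKM and 2548 reads in the hybrid against 0.313 RPKM and 10 reads in B. carinata. Napin, a seed storage protein, had 65.9 and 0.294 RPKM, from 1319 and 4 reads, whereas the 4 cruciferins, the other storage proteins of the seed, stayed at or below 2.85 RPKM in both libraries. The 10 kDa chaperonin CPN10, a partner of mitochondrial chaperonin, had 71.8 and 1.31 RPKM. The aquaporin PIP2-8, a water channel of the plasma membrane, had 365 reads against 1, a read ratio of 379 (interval 67.6 to 15017).

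FAF1, a protein that limits shoot meristem size, had 68.6 RPKM in the hybrid against 2.06 in B. carinata, and its log2 ratio of 4.51 became 1.43 with no minimum of the Swiss-Prot score. The 40S ribosomal protein S15a-4 had 96.9 and 3.53 RPKM. Among biosynthetic enzymes, 3-isopropylmalate dehydrogenase 2 of leucine synthesis had 26.7 and 0.612 RPKM. An aldolase of the shikimate pathway, named from tomato, had 20.2 and 0.268 RPKM from 218 and 3 reads, a read ratio of 75.5 (interval 25.5 to 369). The S-locus-specific glycoprotein, related to the self-incompatibility proteins of the stigma, had 22.2 and 0.952 RPKM, and peroxidase 34 had 51.9 and 3.48 RPKM. All 12 of the highest units had at most 212 reads in B. carinata, and for none was a sequence with 20 reads or more 2-fold lower. The ranking by the ratio favours both of these traits.

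Core histones leaned to the higher side. Histones package DNA, and their RNA is abundant in dividing cells. Of 30 units 5 were higher (16.7%) and 1 was lower, with a median log2 ratio of 0.35, which stayed above 0 under all alternatives. Histone H2B.1 had 301 RPKM in the hybrid against 22.5 in B. carinata. Histone H2B under the cotton entry had 421 and 74.9 RPKM, and the H2A variant 3 under a rice entry had 145 and 17.7 RPKM. Probable histone H2A.3 of rice had 134 and 2 reads, a read ratio of 69.6 (interval 18.9 to 581). Histone H4, the most abundant unit, had 5363 and 5778 RPKM, so that the higher units were of the H2A, H2B and H3 classes. Histone genes are present in many near-identical copies, so the division of reads among the entries is uncertain, and with Arabidopsis entries alone 1 of 20 units was higher and 1 lower.

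Ribosomal and respiratory proteins were shifted slightly upward as groups, without many units apart. Of 163 cytosolic ribosomal proteins 8 were higher (4.91%) and 9 lower (5.52%), with a median of 0.23, or -0.15 where each unit was represented by its single sequence of highest mean, a setting that also took the median of all units from -0.08 to -0.34. Of their 1067 sequences with at least 20 reads 296 (27.7%) were 2-fold higher and 77 (7.22%) 2-fold lower. Among such sequences of all kept units the shares were 22.2% and 21.1%. The ribosomal protein L41 under a tobacco entry, the most abundant, had 4124 RPKM in the hybrid against 2493 in B. carinata. RPS23 and RPS15D were lower, at 2.75 and 35.8 RPKM and at 38.0 and 138 RPKM. Of 56 subunits of the mitochondrial respiratory chain 3 were higher and none was lower, with a median of 0.24, or -0.13 with the single sequence of highest mean. The iron-sulfur protein 7 of NADH dehydrogenase had 79.8 and 26.5 RPKM, but its ratio reversed to -0.43 with the single sequence. ND5, encoded in mitochondrial DNA, had 206 and 89.9 RPKM.

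Plastid-encoded and plastid-targeted proteins held several of the families with the highest medians. The plastid protein ycf1 was present as 5 units of different species with a median of 0.84, and the abundant one, named from Barbarea verna, had 344 RPKM in the hybrid against 122 in B. carinata. The plastid NAD(P)H-quinone oxidoreductase had a median of 0.74 over 6 units, with ndhC at 374 and 143 RPKM and ndhF, under the Olimarabidopsis entry, at 117 and 25.8 RPKM. PsbP domain proteins of the thylakoid lumen had 2 of 6 units higher, PPD5 at 31.0 and 9.01 RPKM and PPD6 at 21.7 and 9.01 RPKM. Peptidyl-prolyl isomerases, which help proteins fold, had 6 of 37 units higher (16.2%) and 2 lower. CYP20-2 had 81.9 and 27.6 RPKM, FKBP16-2 26.9 and 9.09 RPKM, and FKBP16-4 6.48 and 0.791 RPKM, all 3 of the thylakoid lumen. FKBP16-4 reversed to -0.50 with no minimum of the Swiss-Prot score. The most abundant isomerase, the cyclophilin under a B. napus entry, had 2616 and 2310 RPKM.

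Light-harvesting proteins and photosystem subunits depended on units named by grass entries. Of 22 chlorophyll a-b binding units 6 were lower (27.3%) and 1 was higher, with a median of -0.66, but without the units named by grass entries 1 of 17 was lower, 1 was higher and the median was -0.21. LHCB1.3 was that lower unit, at 388 RPKM in the hybrid against 812 in B. carinata. The most abundant unit, CAB1 of Sinapis alba, had 1157 and 1414 RPKM, and the CP24 unit named from tomato was higher at 46.0 and 4.59 RPKM. Of 41 photosystem subunits 7 were lower and 3 were higher, and without grass entries 2 of 36 were lower and 3 higher. PSBO1 of the oxygen-evolving complex, the most abundant, had 582 and 671 RPKM. Over all families 52 of 158 units named by grass entries were lower (32.9%), against 571 of 7419 Arabidopsis entries (7.70%). Those 52 units comprised 111 sequences, 67 of which had a grass protein as best Nr hit, with 845 reads in the hybrid and 4651 in B. carinata. The origin of these sequences was not tested.

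Metallothioneins, small proteins that bind copper and zinc, were touched by the same entries. Of 10 units 5 were lower and 1 was higher, and without grass entries 1 of 6 was lower and 1 higher. Metallothionein-like protein type 2, the most abundant by far, was higher at 6863 RPKM in the hybrid against 1823 in B. carinata, whereas the BIF98 protein of Brassica rapa was lower at 4.46 and 57.0 RPKM. The LSC54 protein of B. napus had 133 and 208 RPKM. Both of the first 2 are Brassica entries, so opposite directions occurred within the family.

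Genes of meiosis held few units apart, and ascorbate peroxidases leaned upward. Of 17 meiosis and recombination units 2 were higher (11.8%) and 1 was lower (5.88%), beside 3.82% and 8.41% of all units. With so few units these shares say little. The meiotic recombinase DMC1 under a soybean entry had 26.7 RPKM in the hybrid against 15.3 in B. carinata. MSH6, a mismatch repair protein and the most abundant, had 34.6 and 28.9 RPKM. All 5 ascorbate peroxidases, which remove hydrogen peroxide, had ratios above 0, with a median of 0.45. APX1 of the cytosol had 460 and 272 RPKM and APX5 of the peroxisome 14.5 and 5.23 RPKM. EPIDERMAL PATTERNING FACTOR-like peptides, secreted signals of stomata and stem growth, had a median of 0.65 over 7 units, with EPFL4 at 18.2 and 7.20 RPKM and EPFL6 at 21.5 and 11.8 RPKM.

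Large regulatory families stayed at or under the background. Of 301 pentatricopeptide repeat proteins, which edit and process organelle RNA, 9 were lower (2.99%) and 7 higher (2.33%). Of 193 receptor-like kinases 11 were lower (5.70%) and 7 higher (3.63%). PERK2, a proline-rich kinase and the most abundant of them, was lower at 672 RPKM in the hybrid against 1923 in B. carinata, and SERK2, a coreceptor needed for tapetum formation together with SERK1, was higher at 9.79 and 1.07 RPKM. None of 26 mitogen-activated protein kinases, 38 calcium-dependent and CBL-interacting kinases, 30 starch enzymes, 13 heat stress factors, 12 kinesins or 10 DNA methyltransferases and demethylases was apart by 2-fold. Across 330 families formed from shared protein names with at least 5 units, the lowest medians were those of metallothionein-like proteins (-1.81, with 4 of 6 units named by grass entries), inorganic phosphate transporters (-1.60), potassium channels (-1.52), SINA-like ligases (-1.05), myrosinase-binding proteins (-0.96), UPF0496 proteins (-0.87), F-box/FBD/LRR proteins (-0.86) and cysteine proteinase inhibitors (-0.85). The highest were those of ycf1 (0.84), NAD(P)H-quinone oxidoreductase (0.74), epidermal patterning factor-like peptides (0.65), PsbP domain proteins (0.53), GPI-anchored proteins without further name (0.52), methylesterases (0.47), ascorbate peroxidases (0.45) and amino acid permeases (0.39).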

How the data were processed

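Floral bud RNA of the hybrid and of B. carinata was compared, with 1 library each; the B. napus library was not used here. Per the file headers, the authors deposited raw read counts and RPKM for each assembled sequence, with sequence length and best Nr and Swiss-Prot hits; RPKM was scaled by the library totals in the header. The assembler, aligner, counter and genome build do not appear in the sources used here.

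From these values, counts and RPKM were summed over sequences with the same Swiss-Prot entry (score at least 0.6 of the Nr score), units with at least 5 RPKM in either library were kept, and log2 ratios were taken with a pseudocount of 1 RPKM. A unit counted as higher or lower at 2-fold. Such ratios understate differences of low units. Read ratios were divided by the library totals of 27.1 M and 28.1 M reads, with exact conditional binomial intervals. Where no read was counted, a level of 0.111 RPM (reads scaled to the library total) remains possible in the hybrid and of 0.107 in B. carinata (3 reads).

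Named units were drawn from the 12 highest and 12 lowest units with at least 20 RPKM and 50 reads, up to 4 units of largest ratio and the most abundant unit of each described family, and the 8 families of highest and of lowest median. Members, families and lists were chosen with earlier results of these data known, and family name patterns were corrected after matches had been seen. The remaining purple acid phosphatases and flavonoid enzymes, the split of F-box names, organ identity and tapetum members named for illustration, and single units said to be so were chosen after their values were seen. Alternatives were other pseudocounts, scalings, joins, score limits and level limits, sequences read in both libraries, Arabidopsis entries alone and, chosen after seeing the data, leaving out grass entries. The calculation was tested on simulated data. Python 3.11.15, numpy 2.4.6, pandas 2.3.3, SciPy 1.17.1, matplotlib 3.10.9, R 4.3.3 and edgeR 4.0.16 (TMM factors only) were used.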

Additional observations from a re-analysis of the deposited data

How the results depend on the processing

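The excess of lower over higher units was present under all alternatives tried, but the counts depended on the setting. Against 309 higher and 681 lower units, a pseudocount of 5 RPKM gave 161 and 412, a limit of 20 RPKM gave 151 and 340, and the single sequence of highest mean in place of the sum gave 559 and 1237. The count of lower F-box units, 85 of 266, was 46 of 221 with sums of RPM and 36 of 125 with the limit of 20 RPKM. The count of lower purple acid phosphatases was 8 to 10. The median log2 ratio of -0.08 was -0.0116 with TMM factors, -0.0446 with the median of ratios, -0.00046 with sums of RPM, -0.34 with the sequence of highest mean, -0.0499 with the limit of 20 RPKM and -0.10 with sequences read in both libraries. TMM factors shifted all ratios by 0.06 and the median of ratios by 0.03 on the log2 scale.

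With no score ratio the log2 ratio reversed for Oleosin-B6 (-0.43), Thaumatin-like protein 1 (-0.37), FKBP16-4 (-0.50), the Extensin of Sorghum (0.17) and AAP7 (0.96), and with the sequence of highest mean for the NADH dehydrogenase iron-sulfur protein 7 (-0.43). The cause was not tested. Of 215 named units apart by 2-fold, 169 remained so with a pseudocount of 5 RPKM and 199 with no score ratio. No paired analysis was possible because each group had 1 library. No biological variation was measured, so the read intervals cover counting error only.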

Other observations

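Several families not described above held units in both directions. Of 23 serine carboxypeptidases, which trim proteins or acylate small molecules, 5 were lower and 4 were higher in the hybrid. SCPL28 had 0.97 RPKM in the hybrid against 9.17 in B. carinata, whereas SCPL35 had 150 and 58.7 RPKM. Of 22 class III peroxidases, which oxidise phenolics in the cell wall, 4 were lower and 3 were higher, with PER68 at 15.2 and 77.5 RPKM and the most abundant, PER42, at 1357 and 1085 RPKM. Of 24 aquaporins 3 were lower and 3 higher, and without grass entries 1 of 22 was lower and 3 were higher. NIP3-1, a boron channel in Arabidopsis, had 23.7 and 2.52 RPKM. Of 17 extensins, structural proteins of the cell wall, 4 were lower and 2 higher, with EXT1 at 52.4 and 150 RPKM.

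Further units, chosen after their values were seen, had large differences outside the families described. Metal tolerance protein MTP1, which moves zinc into the vacuole, had 107 RPKM in the hybrid against 986 in B. carinata, with 2503 and 13760 reads and a read ratio of 0.189. The pectinesterase QUARTET 1, which frees pollen from the tetrad in Arabidopsis, had 5.64 and 37.4 RPKM. Egg cell-secreted protein EC1.5, of a family that acts in gamete fusion, had 28 and 406 reads. The ketoacyl-CoA synthases KCS7 and KCS20, which elongate very-long-chain fatty acids, had 10.8 and 65.3 RPKM and 5.12 and 38.2 RPKM. ASK11, an SKP1-like protein that links F-box proteins to the ligase, had 4.07 and 23.9 RPKM. All of these were taken from the lower side, so their shared direction follows from that choice. Of the 9 MTP1 sequences with at least 20 reads, 3 were 2-fold lower and 1 was 2-fold higher.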
